A study of Mus musculus with 18 samples.

Results

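Immediate early genes are the genes a cell transcribes first after a stimulus, and 10 of them are described here in the glomerulus of *Cd2ap* mutant and wild type mice: *Fos*, *Fosb*, *Jun*, *Junb*, *Atf3*, *Egr1*, *Egr2*, *Nr4a1*, *Ier2* and *Ier3*. They were chosen by gene symbol, each matched exactly 1 transcript cluster of the array, and together they are 10 of the 28856 transcript clusters measured, of which 25254 carry a symbol. The data are 18 Affymetrix Mouse Gene ST arrays in 6 groups of 3: endothelial cells, mesangial cells and podocytes, each from mice labelled CD2AP-/- and from mice labelled wild type, all at 5 weeks of age. *Cd2ap* encodes an adaptor protein of the podocyte slit diaphragm, and mice without it develop focal segmental glomerulosclerosis. In both genotypes the cells carried a GFP reporter, driven by *Tie2* in endothelium and by *Meis1* in mesangial cells, and were sorted by FACS from enzymatically dissociated glomeruli. The sample records give the genotype of every control as wild type, although the titles of the mesangial ones say control, and the deposited column names give the genotype of mesangial controls as +:- and that of the other controls as a doubled plus. Arrays of a group are called A, B and C only to tell them apart.

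Immediate early genes need no new protein for their own induction: kinase cascades set off by growth factors, cytokines, stretch, stress or calcium act on factors already bound at their promoters, such as Srf with its ternary complex partners and Creb1. Most of their products are transcription factors that then switch on a later set of genes, and their RNAs are short lived. Fos and Jun proteins pair to form AP-1, Egr proteins are zinc finger factors, and Nr4a1 is an orphan nuclear receptor. The same genes are known to respond to tissue dissociation and cell sorting, a step that all 18 samples shared.

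The promoters below are shown because TGACG, the core site bound by Creb1 and Atf family factors, recurs in those of *Fos*, *Egr2* and *Nr4a1*, while that of *Ier3*, called higher in mutants below, holds none. Each is the 250 bases before a start site in the RefSeq table of build GRCm38.p6, written 5′ to 3′ on the strand of the gene, with TGACG on either strand and the CArG box, the site of Srf, in capitals.
*Fos* promoter, chr12:85473640-85473889, plus strand: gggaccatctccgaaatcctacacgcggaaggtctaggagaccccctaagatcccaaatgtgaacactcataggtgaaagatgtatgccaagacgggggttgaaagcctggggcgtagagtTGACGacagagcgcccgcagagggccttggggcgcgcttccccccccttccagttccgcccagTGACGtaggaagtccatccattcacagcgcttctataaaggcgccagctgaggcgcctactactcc
*Egr2* promoter, chr10:67537619-67537868, plus strand: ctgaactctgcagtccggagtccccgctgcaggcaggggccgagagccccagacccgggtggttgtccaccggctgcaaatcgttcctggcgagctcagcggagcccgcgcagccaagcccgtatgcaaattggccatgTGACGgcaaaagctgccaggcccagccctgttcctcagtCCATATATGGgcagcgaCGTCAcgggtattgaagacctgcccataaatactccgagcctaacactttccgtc
*Nr4a1* promoter, chr15:101266596-101266845, plus strand: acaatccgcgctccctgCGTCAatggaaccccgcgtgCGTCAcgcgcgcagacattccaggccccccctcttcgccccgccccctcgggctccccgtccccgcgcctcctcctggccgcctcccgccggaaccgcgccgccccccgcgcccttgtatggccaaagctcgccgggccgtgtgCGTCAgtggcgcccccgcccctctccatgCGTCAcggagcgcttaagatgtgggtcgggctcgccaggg
*Ier3* promoter, chr17:35821463-35821712, plus strand: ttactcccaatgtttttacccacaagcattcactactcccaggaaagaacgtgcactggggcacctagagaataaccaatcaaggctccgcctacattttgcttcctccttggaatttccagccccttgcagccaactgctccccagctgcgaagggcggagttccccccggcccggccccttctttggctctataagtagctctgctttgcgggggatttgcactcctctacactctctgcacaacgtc
A promoter window was at hand for 8 of the 10 members, but not for *Egr1* or *Ier2*. TGACG was present on either strand in 6 of these 8, in *Fos*, *Fosb*, *Junb*, *Atf3*, *Egr2* and *Nr4a1*, and in 17.8% of all 32851 windows of the same length. The windows of the members held 54.0% to 74.4% GC, against a median of 52.4% over all windows, so the shares given here are not matched for GC. *Nr4a1* carried 4 matches, all on the opposite strand, and *Fos* carried 2, from -129 to -125 and from -66 to -62 relative to the start. The CArG box was found in 1 of the 8, in *Egr2* from -72 to -63, against 1.47% of all windows, and it lay between a pair of TGACG matches. *Egr2* has 5 listed start sites and thus 5 windows, which overlap in part, where the other 7 genes have 1 each. TGACG was in 3 of its windows and a CArG box in 4, and the window shown is one that holds both. *Ier3* held neither. The full palindrome TGACGTCA, searched on both strands and containing TGACG, was in none of the 8 and in 1.55% of all windows. Other motifs searched were TGACTCA, in 0 of the 8 (4.46% of all windows), and TATAAA, in 1 (12.4%). CCAAT was in 4 (33.8%), CCGGAA in 2 (12.0%) and TGACGCAA in 1 (0.438%). A member counts when any of its windows holds a match, while the shares are per window. Bases farther than 250 before a start were not searched. These are matches of letters and say nothing of binding.

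Array medians lay between 62.8 and 71.6 on the linear signal scale, the lowest signal was 19.6 and the highest 6689, and 9697 to 10097 transcript clusters per array reached 100. Marker genes matched the labelled cell types: the summed signal of 7 podocyte markers was 11996 to 14707 in podocyte arrays, that of 8 endothelial markers 14889 to 17230 in endothelial arrays and that of 8 mesangial markers 8229 to 11749 in mesangial arrays. Mesangial wild type array C stood apart, with podocyte markers summing to 3735 and endothelial markers to 7736, against at most 1019 and 2940 in the other 5 mesangial arrays. In podocytes the endothelial markers summed to 4360 to 5770 in wild type and to 764 to 2607 in mutant arrays. All 8 endothelial markers reached 100 in at least 1 array of both podocyte groups. *Cd2ap* itself checked the labels only in part. Its mutant minus wild type difference on the log2 scale was -0.31 in mesangial cells, -0.23 in podocytes and 0.18 in endothelium, with limma adjusted p of 0.151, 0.504 and 0.336, so the directions below rest on the labels. The RNA of sorted cells is measured in bulk, where fewer cells of a type and less RNA per cell cannot be told apart. The study calls the samples biological triplicates, without naming the animals or pools, so p-values measure the spread between these samples.

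Most members had low signals. *Jun* was the one member above 100 in all 18 arrays, with a range of 156 to 1767. *Atf3* reached 100 in 17 arrays, *Ier3* in 16, *Fos* and *Egr1* in 13, *Fosb* in 12, *Nr4a1* in 10, and *Junb* and *Egr2* in 5. *Ier2* reached it in 1 array. Because a transcript cluster entered a test when any array of the comparison reached 100, *Fosb*, *Junb* and *Ier2* were not tested in mesangial cells, *Ier2* not in podocytes and *Egr2* not in endothelium. Signals near the background compress a fold change, and levels of different probes are not set against each other.

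**Figure D1:**
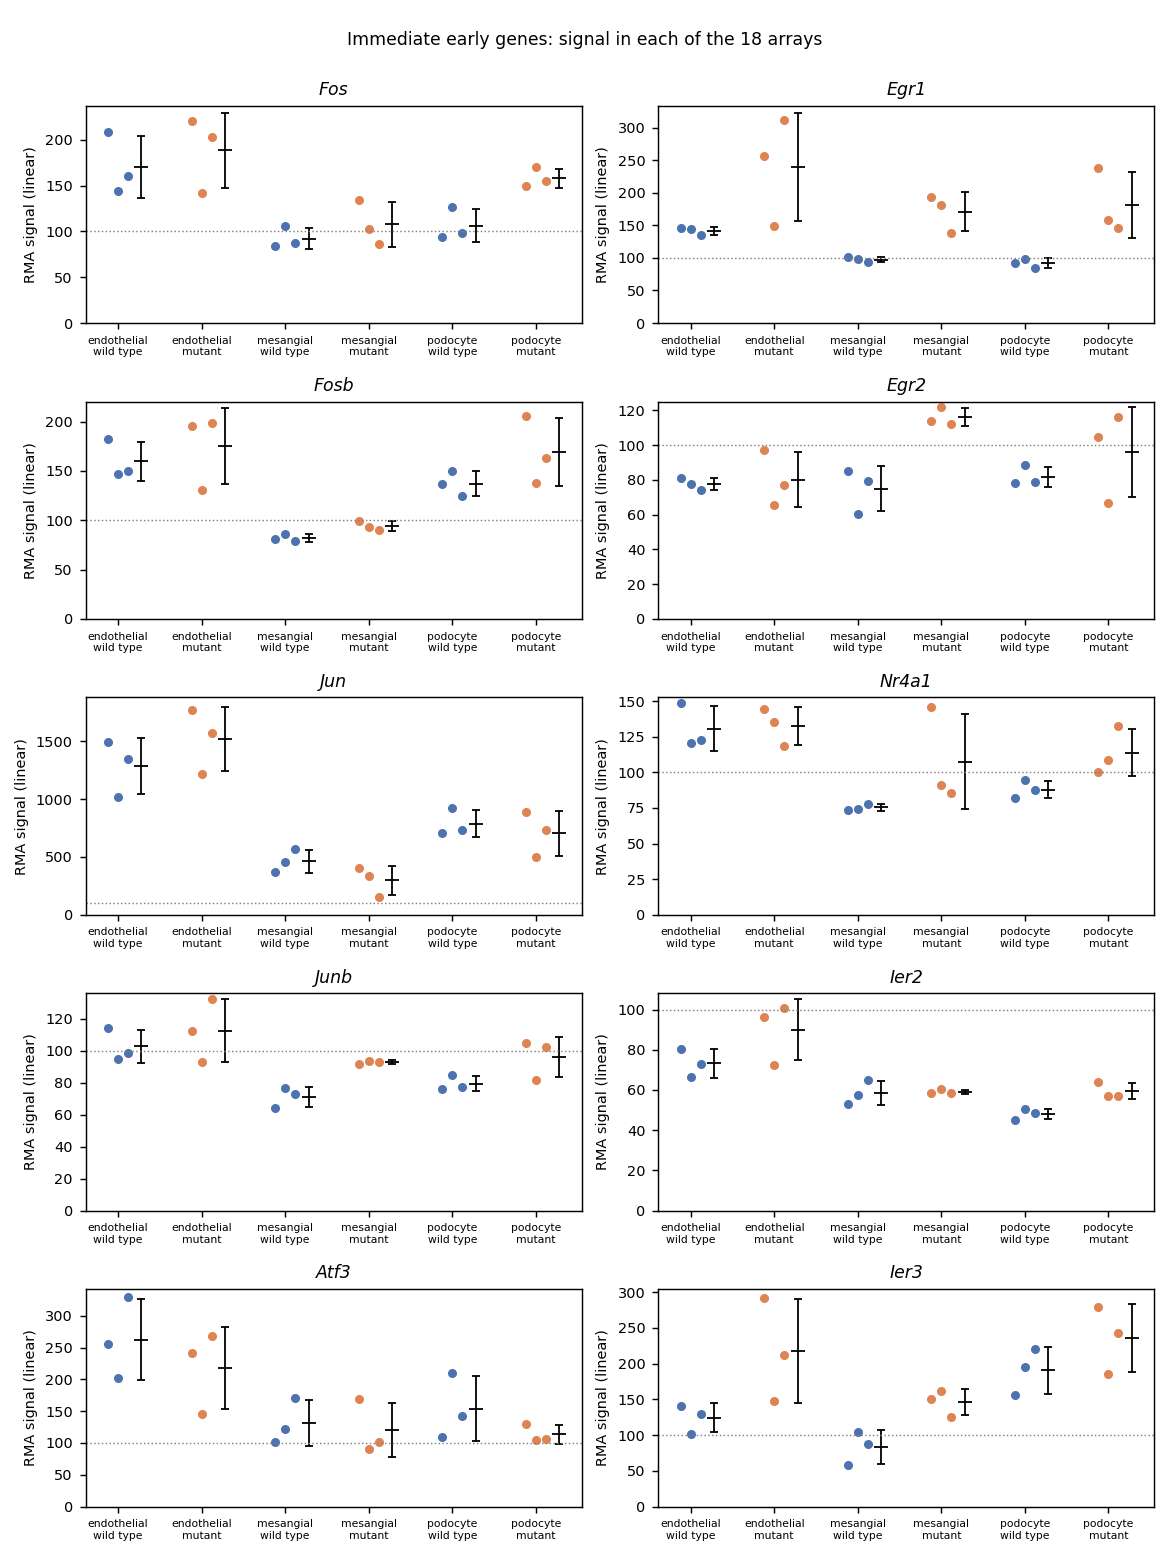
RMA signal of each member on a linear axis from 0 in the 18 arrays, with 3 points per group for arrays A, B and C (blue wild type, orange mutant) and a black bar for the mean ± SD (n = 3). The dotted line is the signal minimum of 100. For *Egr1* the mutant points lie above every wild type point of the same cell type, while those of *Atf3* and *Jun* overlap.

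Of the 10 members, *Egr1* was the one with a call in each cell type, higher in mutants in all 3, although in podocytes it entered the test only through mutant arrays. *Ier3* was called higher in mesangial cells and endothelium, and *Egr2* in mesangial cells. No member was called lower in any cell type, where the screen called 3.12%, 4.34% and 0.865% of all transcript clusters lower in mesangial cells, podocytes and endothelium. A call is an unadjusted limma p under 0.05 with a fold change over 1.5, the screen of the study's methods, and adjusted p-values are by the Benjamini-Hochberg method over all transcript clusters tested.

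In mesangial cells 3 of the 7 members tested were called higher, where the screen called 2.08% of all 11457 tested transcript clusters higher. The mutant arrays lay above the wild type arrays without overlap for 4 of the 7, against 12.3% of all tested. *Egr2* and *Nr4a1* passed the minimum only through mutant arrays, which by itself favours a higher value. They are 1 of the 3 calls and 2 of the 4 without overlap, so these counts are not read against the shares. Over all 10 members without a minimum, 8 differences were above 0, and the median was 0.30 on the log2 scale against 0.01 over all transcript clusters. In podocytes 1 of the 9 tested was called higher, with 1.26% of all 12113 called higher. Groups did not overlap for 3 of the 9, against 6.97%, and 4 of the 9, *Egr1*, *Egr2*, *Junb* and *Nr4a1*, passed the minimum only through mutant arrays. The 1 call, *Egr1*, and 2 of the 3 without overlap, *Egr1* and *Nr4a1*, are thus members that could enter only by being higher in mutants, and nothing is read from these counts against the shares. The median over all 10 was 0.29, against 0.03 over all transcript clusters. In endothelium 2 of the 9 tested were called higher, with 2.96% of all 11330 called higher, and the same 2 did not overlap, against 17.7%. *Ier2* passed the minimum there only through a mutant array. There 9 of the 10 members were above 0, with a median of 0.13 against -0.03 over all transcript clusters. Among those that passed the minimum in endothelium 64.9% were above 0, with a median of 0.07, so differences above 0 were common there.

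**Figure D2:**
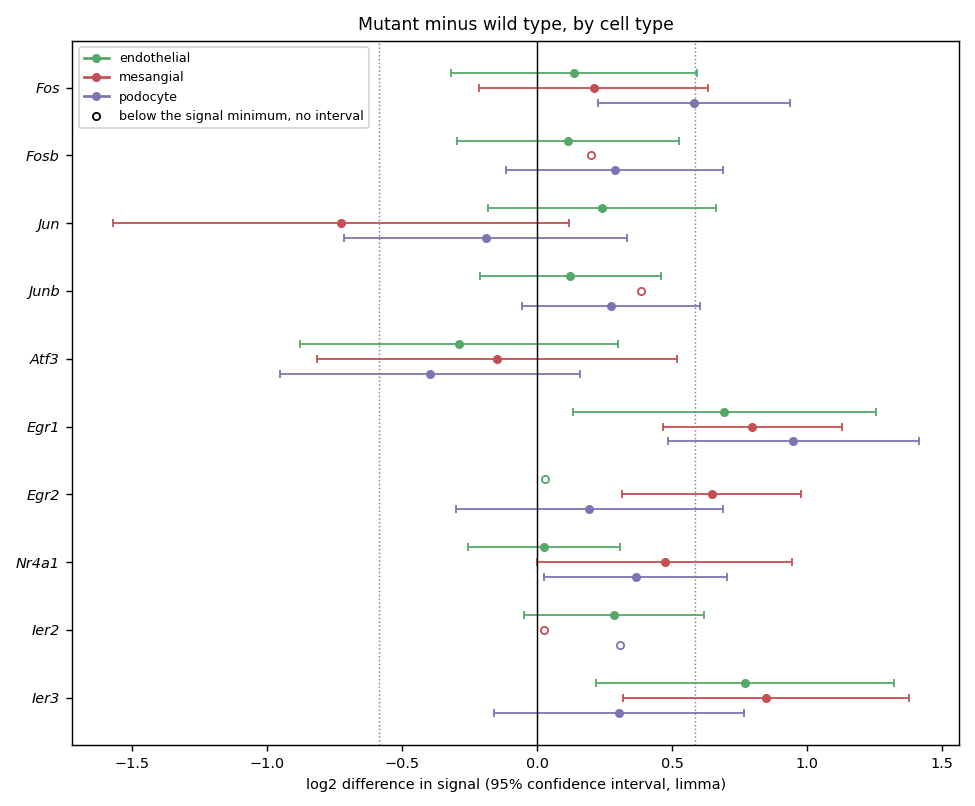
Mutant minus wild type difference of each member on the log2 scale (x axis) in endothelial cells, mesangial cells and podocytes, with 95% confidence intervals from limma (n = 3 per genotype). Open circles are members below the signal minimum in that cell type, and dotted lines mark a 1.5-fold change. The intervals of *Egr1* lie above 0 in all 3 cell types, and those of *Atf3* and *Jun* include 0 in all 3.

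*Egr1* encodes a zinc finger factor that binds GC-rich sites and is induced by growth factors, stretch and injury. In mesangial cells its signal was 101, 98.5 and 93.1 in the wild type arrays and 194, 181 and 138 in the mutant arrays. All 3 mutants stood above all 3 controls, by 0.80 on the log2 scale (SE 0.14, limma adjusted p = 0.0396), a 1.74-fold change. It was the one member with an adjusted p under 0.05 in any of the 3 cell types, and 1.25% of all transcript clusters tested in mesangial cells were higher at that level, against 0.0495% in podocytes and 1.21% in endothelium. As single arrays were left out its difference stayed between 0.70 and 0.95, with an adjusted p from 0.0245 to 0.141. Without wild type array C, the one with podocyte and endothelial markers, it was 0.76 (adjusted p = 0.0733), and the count of 3 called members was the same.

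In podocytes the wild type signals of *Egr1* were 92.2, 98.9 and 83.7, all below 100, and those of the mutants were 239, 158 and 146. The groups were again apart, with mutant array A the highest. The difference was 0.95 on the log2 scale (SE 0.20, adjusted p = 0.143), a 1.93-fold change, and 0.73 without mutant array A (adjusted p = 0.0473). Without any other single array it was 0.89 to 1.09, with a limma adjusted p from 0.142 to 0.498. In endothelium the wild type arrays gave 145, 144 and 134 and the mutants 257, 148 and 311. The controls were close together, while mutant array B was barely above them. The difference was 0.69 (SE 0.24, adjusted p = 0.200), a 1.62-fold change. It was no longer called without mutant array A (0.61), without mutant array C (0.47) or without wild type array C (0.66), and it was 1.00 with an adjusted p of 0.0125 without mutant array B.

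*Egr2*, a related zinc finger factor known from myelination and from T cells, was called higher in mesangial cells. Its mesangial signals were 85.0, 60.3 and 79.3 in wild type and 114, 122 and 112 in mutant arrays, so 100 was passed in mutants only. The difference was 0.65 (SE 0.14, adjusted p = 0.0636). Without wild type array B, the lowest, it was 0.50 and no longer past 1.5-fold. In podocytes the mutants gave 105, 66.9 and 116 around the wild type values of 78.3, 88.3 and 78.6, and the groups overlapped (0.19, adjusted p = 0.710). The endothelial signals were all below 100, from 74.1 to 81.0 in wild type and from 65.7 to 97.1 in mutants.

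*Fos*, the partner of Jun proteins in AP-1 and the most widely used marker of recent stimulation, was not called in any of the 3 cell types. Wild type podocytes gave 93.98, 127 and 98.1 and mutant podocytes 149, 170 and 154, without overlap. The difference of 0.58 (SE 0.15, adjusted p = 0.195) passed the p of the screen, but at 1.495-fold it fell just short of 1.5-fold and was not called. It passed 1.5-fold without mutant array A (0.62), without mutant array C (0.59) or without wild type array B (0.71). *Fos* did not pass the test in mesangial cells, where the signals were 83.8, 106 and 86.9 in wild type and 134, 103 and 85.9 in mutants (0.21, adjusted p = 0.543). In endothelium they were 209, 144 and 160 in wild type and 221, 142 and 203 in mutants (0.14, adjusted p = 0.737). The 95% interval of the endothelial difference ran from -0.32 to 0.59.

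*Fosb* encodes a Fos family protein whose truncated form, ΔFosB, is unusually stable. No difference passed the test: it was 0.29 in podocytes (adjusted p = 0.485) and 0.11 in endothelium (adjusted p = 0.757). In mesangial cells the wild type arrays gave 81.3, 86.2 and 78.9 and the mutants 99.4, 93.0 and 90.3. These do not overlap, yet all 6 are below the minimum, and the difference without a minimum was 0.20 (adjusted p = 0.219). *Junb*, a Jun family member that often restrains Jun, showed the same: 64.2, 76.5 and 72.8 against 91.4, 93.8 and 92.9 in mesangial cells, below the minimum and without overlap (0.38, adjusted p = 0.0874 without a minimum). In podocytes *Junb* gave 75.7, 84.7 and 77.3 in wild type and 105, 82.0 and 102 in mutants (0.27, adjusted p = 0.420). The endothelial values overlapped, with 114, 94.9 and 98.6 against 112, 92.9 and 132.

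*Jun*, the core AP-1 subunit and a target of the kinase Jnk, was not called in any of the 3 cell types. Mesangial wild type arrays gave 370, 453 and 568 and mutants 402, 334 and 156. The mutant mean was the lower, with array C far below the rest, and the groups overlapped. The difference of -0.73 (SE 0.35, adjusted p = 0.292) was not called. It was -0.32 without mutant array C, and -1.0003 and called lower without mutant array A. It was -0.19 in podocytes (adjusted p = 0.731), where the wild type arrays gave 707, 922 and 735 and the mutants 884, 497 and 733. In endothelium *Jun* gave 1493, 1017 and 1348 in wild type and 1767, 1216 and 1567 in mutants (0.24, adjusted p = 0.499), with overlap. *Atf3*, a stress-induced factor of the Atf and Creb family, had a mean below wild type in all 3 cell types, by -0.15 in mesangial cells, -0.40 in podocytes and -0.29 in endothelium. None of these passed the test (adjusted p = 0.795, 0.485 and 0.564), and the groups overlapped in each. In podocytes the signals were 110, 210 and 142 in wild type against 130, 104 and 106 in mutants. Without wild type array A, the lowest control, the podocyte difference was -0.62 and called lower. Without wild type array B, the highest control, it was -0.14 and not called.

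*Nr4a1*, a nuclear receptor without a known ligand that is induced within minutes, was apart between genotypes in mesangial cells and podocytes without being called. Mesangial wild type arrays gave 73.8, 74.1 and 78.0 and mutants 146, 91.1 and 85.8. The difference of 0.47 (SE 0.20, adjusted p = 0.232) was 0.23 without mutant array A, the highest, and 0.61 and called higher without mutant array C, the lowest. Podocyte wild type arrays gave 81.9, 94.3 and 87.4 and mutants 100.3, 109 and 132. There the difference was 0.37 (SE 0.15, adjusted p = 0.326). The endothelial arrays overlapped, with 149, 121 and 122 in wild type and 145, 135 and 119 in mutants, and differed by 0.03 with a 95% interval of -0.26 to 0.31.

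*Ier3* encodes a small protein that modulates cell survival and is also a target of NF-κB. Mesangial wild type arrays gave 57.8, 105 and 87.2 and mutants 151, 161 and 126, all mutants above all controls. The difference was 0.85 (SE 0.22, adjusted p = 0.0980), a 1.80-fold change, and stayed called as each of the 6 arrays was left out, between 0.60 and 1.03. Endothelial wild type arrays gave 141, 102 and 129 and mutants 293, 148 and 213. The groups were apart, with mutant array B close to the controls, and the difference was 0.77 (SE 0.24, adjusted p = 0.172). Without mutant array A it was 0.53 and no longer called. Podocytes gave 156, 195 and 221 in wild type and 280, 185 and 243 in mutants, which overlapped (0.30, adjusted p = 0.519). *Ier2*, a nuclear protein of little known function, lay between 45.2 and 64.7 in mesangial cells and podocytes, below the minimum. Podocytes gave 45.2, 50.5 and 48.5 in wild type and 63.9, 57.2 and 57.2 in mutants, without overlap, and the difference without a minimum was 0.31 (adjusted p = 0.295). In endothelium it gave 80.6, 66.2 and 73.0 in wild type and 96.2, 72.7 and 101 in mutants (0.28, adjusted p = 0.331).

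Whether the genotype effect differed between cell types was tested as an interaction over all 18 arrays, where the 10 members passed the minimum. No member had a limma adjusted p under 0.05, where 0.717% of all transcript clusters did between podocytes and mesangial cells, 1.07% between endothelium and mesangial cells and 2.11% between endothelium and podocytes. An unadjusted p under 0.05 was met by 2 members between endothelium and mesangial cells, against 15.9% of all 13523 transcript clusters, by 0 between podocytes and mesangial cells, against 12.0%, and by 0 between endothelium and podocytes, against 23.4%. The 2 were *Jun*, where the endothelial minus mesangial difference was 0.97 (SE 0.42, limma adjusted p = 0.275), and *Egr2*, where it was -0.62 (SE 0.26, adjusted p = 0.255). Leaving out single arrays ended the unadjusted call of *Jun* in 6 of 12 cases and of *Egr2* in 5 of 12. The call of *Egr2* in mesangial cells alone was thus not shown to be a difference. The same holds for the calls of *Ier3* in mesangial cells and endothelium and the absence of one in podocytes: the podocyte minus mesangial value was -0.54 with a 95% interval of -1.29 to 0.20. For *Egr1* it was 0.15, with an interval of -0.52 to 0.83.

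The genotype effect averaged over the 3 cell types was added after these values were seen. *Egr1* was higher by 0.81 (SE 0.13, limma adjusted p = 0.00223) and *Ier3* by 0.64 (SE 0.14, adjusted p = 0.0163), and these 2 of the 10 were called higher, against 0.791% of 13523 transcript clusters. *Egr1* stayed between 0.74 and 0.92 as each of the 18 arrays was left out. *Ier3* was no longer called without endothelial mutant array A or without mesangial wild type array A, the latter at 0.56. *Junb* followed at 0.26 (SE 0.07, adjusted p = 0.0519), then *Nr4a1* at 0.29 (adjusted p = 0.0916), *Ier2* at 0.21 (adjusted p = 0.0962), *Fos* at 0.31 (adjusted p = 0.116), *Egr2* at 0.29 (adjusted p = 0.119) and *Fosb* at 0.20 (adjusted p = 0.236). *Atf3* at -0.28 (adjusted p = 0.381) and *Jun* at -0.23 (adjusted p = 0.495) were the 2 below 0.

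Cell type markers differed between genotypes in some of these comparisons. In podocytes 7 of the 8 endothelial markers were called lower in mutants, with a median of -1.71 on the log2 scale, and the summed signal of 5 smooth muscle and juxtaglomerular markers was 766 to 783 in wild type and 1022 to 2970 in mutant arrays. Of 8 mesangial markers 3 were called lower in mutant podocytes, with sums of 3595 to 4477 in wild type and 1140 to 3452 in mutants. In mesangial cells those 5 smooth muscle and juxtaglomerular markers summed to 1326 to 1609 in wild type and to 1592 to 2892 in mutants, and 2 of them were called higher. There 2 of the 8 endothelial markers and 2 of the 8 mesangial markers were called lower, the latter with sums of 10620 to 11749 in wild type and 8229 to 9098 in mutants. The 3 erythroid markers summed to 271 to 7227 in wild type and 176 to 361 in mutant mesangial cells, and to 2962 to 3963 and 202 to 5377 in podocytes, and 0 were called or had an unadjusted limma p under 0.05 in either, where 3 and 2 of them were tested. Of 7 podocyte markers 1 was called lower in mutant podocytes and 1 in mutant mesangial cells, 1 of the 3 leukocyte markers tested was called higher in mutant podocytes, and 1 of the 7 heat shock transcript clusters was called lower in mesangial cells and in podocytes. In endothelium 1 of the 8 endothelial markers and 1 of the 2 mesangial markers tested were called higher. There mutant array A stood apart, with mesangial markers summing to 1034 and 8 leukocyte markers to 732, against 674 to 734 and 412 to 474 in wild type arrays, and it is the array without which neither *Egr1* nor *Ier3* was called in endothelium. The summed signal of 7 heat shock transcript clusters, a readout of cellular stress, was 6920 to 7558 in mesangial wild type and 6030 to 6634 in mutant arrays. In endothelium it was 8075 to 9931 and 7015 to 9872, and in podocytes 5950 to 7597 and 5277 to 6962. In the genotype effect averaged over the 3 cell types 5 of 8 endothelial markers (median -0.79) and 2 of 3 erythroid markers (median -1.44) were called lower. So were 2 of 8 mesangial markers, 1 of 7 podocyte markers and 1 of 7 heat shock transcript clusters. In that average 2 of 5 smooth muscle and juxtaglomerular markers were called higher. The part of other cell types or of stress in the values of the members was not tested.

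Among wild type arrays *Fos*, *Jun*, *Atf3* and *Egr1* were highest in endothelium, and *Fosb* was higher there than in mesangial cells. *Ier3* had its highest mean in podocytes. *Nr4a1* and *Junb* were also highest in endothelium, but they could be tested only through it, so nothing is read from their place. Relative to endothelium, 6 of the 8 members tested were called lower in mesangial cells, against 8.22% of 12537 transcript clusters, and 7 of the 8 had groups that did not overlap, against 24.3%. *Nr4a1* and *Junb* passed the minimum only through endothelial arrays, which by itself favours a lower value elsewhere, so these counts are not read against the shares. Over all 10 members without a minimum, 0 were above 0, and the median was -0.70 against -0.04 over all transcript clusters. *Jun* differed most, by -1.47 (SE 0.19, limma adjusted p = 0.000308), *Atf3* by -1.004 (SE 0.27, adjusted p = 0.0196), *Fosb* by -0.95 (SE 0.11, adjusted p = 0.000174), *Fos* by -0.88 (SE 0.17, adjusted p = 0.00322) and *Nr4a1* by -0.79 (SE 0.10, adjusted p = 0.000357). *Egr1* (-0.53, adjusted p = 0.00157) and *Junb* (-0.53, adjusted p = 0.00445) were lower with a fold change under 1.5. The sixth call was *Ier3* at -0.61 (adjusted p = 0.0640), which was lost without endothelial array A, without endothelial array C or without mesangial array A (-0.37), and was -0.56 and under 1.5-fold with array medians subtracted.

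Wild type podocytes were lower than endothelium for 4 of the 8 members tested by the screen, against 12.0%, and higher for 1, against 10.0%. Lower were *Atf3* (-0.79, adjusted p = 0.0439), *Jun* (-0.70, adjusted p = 0.0158), *Fos* (-0.68, adjusted p = 0.0101) and *Egr1* (-0.63, adjusted p = 0.000493). *Nr4a1* (-0.57, adjusted p = 0.00205) and *Junb* (-0.37, adjusted p = 0.0209) were lower under 1.5-fold, although *Nr4a1* passed 1.5-fold with array medians subtracted (-0.59) and without endothelial array B (-0.62), endothelial array C or podocyte array B, and *Fosb* did not pass the test (-0.22, adjusted p = 0.162). *Ier3* was the exception, higher in podocytes by 0.61 (SE 0.22, adjusted p = 0.0531). Without endothelial array A the values of *Fos* (-0.52) and *Jun* (-0.58) were under 1.5-fold, as was *Egr1* without podocyte array C (-0.56). *Atf3* was no longer called without podocyte array A (-0.57) or endothelial array C, and *Ier3* without endothelial array B (0.48), podocyte array B or podocyte array C. Between podocytes and mesangial cells 3 of the 8 were called higher in podocytes, against 6.16%: *Ier3* by 1.22 (SE 0.22, adjusted p = 0.00290), *Jun* by 0.78 (SE 0.19, adjusted p = 0.0139) and *Fosb* by 0.74 (SE 0.11, adjusted p = 0.00100). *Fos*, *Junb*, *Atf3*, *Egr1* and *Nr4a1* did not pass the test between these 2 cell types (adjusted p = 0.397, 0.298, 0.597, 0.478 and 0.143).

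Among these sorted wild type arrays the order of levels was endothelium, podocytes, mesangial cells for *Jun*. For *Fosb* endothelium and podocytes were neighbours that did not pass the test, and both were above mesangial cells. For *Ier3* podocytes stood above mesangial cells, with endothelium between them at adjusted p-values over 0.05 to either side. *Egr2* had like signals in the 3 wild type groups, with means of 77.5 ± 3.46, 74.9 ± 12.9 and 81.7 ± 5.64 (SD, n = 3) in endothelium, mesangial cells and podocytes, and was not tested. *Ier2*, also not tested with the minimum, had means of 73.3 ± 7.19, 58.4 ± 5.98 and 48.0 ± 2.67. Without a minimum, at signals below 100, its difference from endothelium was -0.61 in podocytes (limma adjusted p = 0.00280) and -0.33 in mesangial cells (adjusted p = 0.0521). Between podocytes and mesangial cells it was -0.28 (adjusted p = 0.101). The 3 contrasts share arrays and are not independent of each other. Wild type podocyte arrays also carried endothelial markers, as given above, and mesangial markers, with sums of 3595 to 4477. Mesangial wild type array C carried podocyte and endothelial markers, with sums of 3735 and 7736. The part of other cell types in the order of levels was not tested. The 7 heat shock transcript clusters were also lower than in wild type endothelium by the screen for 3 in mesangial cells, with a median of -0.36, and for 2 in podocytes, with a median of -0.50, and their part in the values of the members was not tested.

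**Figure D3:**
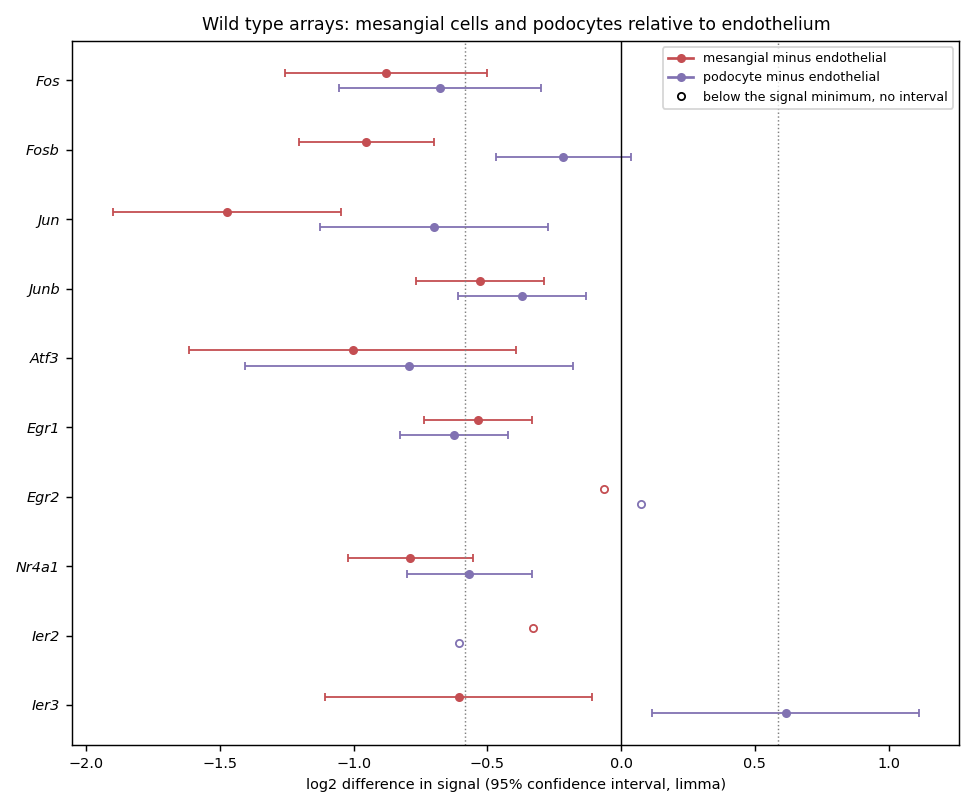
Wild type mesangial cells and podocytes relative to wild type endothelium for each member, as log2 differences (x axis) with 95% confidence intervals from limma (n = 3 per cell type). Open circles are members below the signal minimum, and dotted lines mark a 1.5-fold change. *Jun* lies farthest to the left at -1.47 in mesangial cells, and *Ier3* is the one tested member to the right of 0, at 0.61 in podocytes.

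Within a group, members tended to be highest or lowest in the same array. The share of all transcript clusters placed likewise was not counted, so these counts have no share beside them. In mutant endothelium array B was the lowest of the 3 arrays for 9 of the 10 members, by a median of -0.34 from the group mean on the log2 scale, while the median over all transcript clusters at 100 or more was -0.0009. In wild type endothelium array A was the highest for 9 and array B the lowest for 8. Their medians were 0.18 and -0.13, against 0.0374 and -0.0196 over all transcript clusters at 100 or more. In wild type podocytes array B was the highest for 9 and array A the lowest for 8, with medians of 0.11 and -0.093, against -0.008 and 0.016. In mutant mesangial cells array C was the lowest for 8, with a median of -0.20 against 0.0145. In mutant podocytes array A was the highest for 7 and array B the lowest for 7, with medians of 0.19 and -0.19. Over all transcript clusters these 2 arrays were at 0.0356 and -0.0261. In wild type mesangial cells array A was the lowest for 7, with a median of -0.13 against -0.0148. The members are thus not independent measures of a genotype, and 1 array can move several of them at once.

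**Figure D4:**
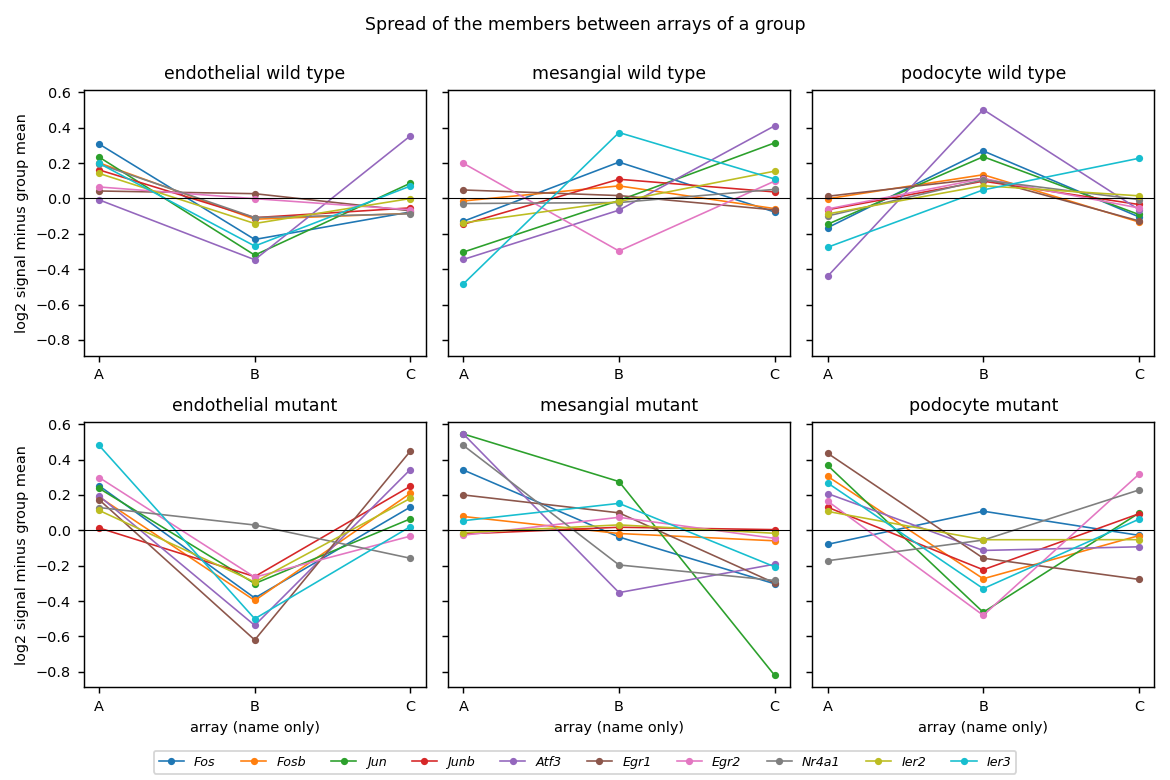
Log2 signal of each member minus its group mean (y axis) in arrays A, B and C of the 6 groups, 1 line per member. Lines link the same member and carry no order in time. In mutant endothelium 9 of the 10 lines reach their lowest point at array B.

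The transcript clusters nearest to a member were ranked among 12605. The measure was the root mean square difference of log2 signals, each centred on its own mean over the 18 arrays. Amplitude thus counts as well as shape. Nearest to *Fos* were the cluster shared by *Zdhhc16* and *Mms19* (0.207), *Wwtr1* (0.221), *Btg2* (0.225), *Cyp2d22* (0.230) and the member *Nr4a1* (0.237). *Fosb* came at rank 12, *Junb* at rank 30 and *Ier2* at rank 64 in that list, and *Jun* at rank 9680. The difference of *Jun* from *Fos* (0.634) was above the own spread of *Fos* (0.442). A late rank therefore does not tell a different shape from a larger range. Nearest to *Egr1* were the cluster shared by 1500012F01Rik and *Znfx1* (0.300), *Rell1* (0.325), *Tes* (0.327), *Icam1* (0.341) and *Tnfaip2* (0.345), followed by *Junb* at rank 6 (0.352). Nearest to *Atf3* were *Hlx* (0.277), the cluster shared by *Slc7a7* and *Oxa1l* (0.312), *Snx25* (0.316), *Plcg2* (0.317) and *Gata2* (0.319), and no other member ranked higher there than *Ier2* at 322. These ranks describe 18 arrays that share cell type and genotype.

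Other genes of the pathway were read from lists made by function. Over all transcript clusters the screen called 2.08% higher and 3.12% lower in mesangial cells, 1.26% and 4.34% in podocytes, and 2.96% and 0.865% in endothelium. Among 11 other AP-1 genes *Maff*, a small Maf protein that pairs with Fos, was called higher in mesangial cells (0.69, adjusted p = 0.0714) and in podocytes (0.91, adjusted p = 0.143), and it was the 1 call of the 10 tested in mesangial cells and of the 9 tested in podocytes. In both it passed the minimum only through mutant arrays. None of 9 was called in endothelium. Of the 6 other Egr and Nr4a genes and Egr corepressors 4 were tested in each cell type, and 0 were called or had an unadjusted limma p under 0.05. None of 9 MAP kinases was called in any of the 3 cell types. Of 8 upstream factors the cluster shared by *Elk3*, a ternary complex factor, and *Cdk17* was called lower in podocytes (-1.02, adjusted p = 0.181), and *Mkl2*, a coactivator of Srf, higher in endothelium (0.67, adjusted p = 0.0442).

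Of 14 feedback inhibitors 10 were tested in mesangial cells, where *Spred2*, an inhibitor of Ras signalling, was called lower (-0.67, adjusted p = 0.0303). In podocytes 1 of 12 was called, *Nfkbia*, the inhibitor of NF-κB, which was higher (0.81, adjusted p = 0.118), and in endothelium 1 of 10, *Dusp6*, the phosphatase of Erk, which was higher (0.61, adjusted p = 0.0507). Among 30 other rapid response genes 4 of 26 tested were called higher and 2 lower in mesangial cells, against 2.08% and 3.12% of all transcript clusters. Of the 4, *Ptgs2*, *Myc* and *Bhlhe40* passed the minimum only through mutant arrays, so the count of 4 is not read against its share. *Ptgs2*, the inducible cyclooxygenase, was higher by 2.58 (SE 0.26, adjusted p = 0.00843), from 57.0, 62.7 and 57.4 in wild type to 337, 526 and 247 in mutant arrays. *Errfi1*, an inhibitor of the EGF receptor, was higher by 2.32 (SE 0.16, adjusted p = 0.00299). *Myc* was higher by 1.06 (adjusted p = 0.0204) and *Bhlhe40* by 0.88 (adjusted p = 0.0781), while *Plk2* (-1.09, adjusted p = 0.162) and *Hbegf* (-0.66, adjusted p = 0.148) were called lower.

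In podocytes 5 of 23 of these genes were called higher, against 1.26%, a count not read against that share, since *Gadd45b* and *Sik1* passed the minimum only through mutant arrays: *Cyr61* (1.36, adjusted p = 0.177), *Per1* (1.16, adjusted p = 0.267), *Gadd45b* (1.01, adjusted p = 0.277), *Ctgf* (0.73, adjusted p = 0.154) and *Sik1* (0.59, adjusted p = 0.233). *Gadd45a* (-0.91, adjusted p = 0.143) and *Hbegf* (-0.65, adjusted p = 0.329) were called lower. In endothelium 3 of 27 were called higher, against 2.96%, *Cyr61* (0.99, adjusted p = 0.173), *Csrnp1* (0.73, adjusted p = 0.0322) and *Per1* (0.66, adjusted p = 0.209), and *Hbegf*, a ligand of the EGF receptor, was lower (-0.61, adjusted p = 0.146). *Hbegf* was thus called lower in all 3 cell types, where *Egr1* was called higher in all 3.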

How the data were processed

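The authors deposited a linear intensity per transcript cluster and array, which the sample records ascribe to RMA in Expression Console, a method that subtracts background, equalizes the distributions of the arrays and summarizes the probes of a transcript cluster. Another 18 columns, headed normalized, were not used. The methods name Mouse Gene ST arrays, single round Ribo-SPIA amplification and GeneSpring, and the series record names Exon arrays and GeneBASE instead. Depth does not apply to arrays, whose number limits the precision.

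Genotypes were compared within each cell type on log2 signals with limma 3.58.1 (lmFit, then eBayes; R 4.3.3). A transcript cluster was tested when any array of the comparison reached 100. Wild type cell types were compared in 1 fit of 9 arrays, and interactions and the averaged genotype effect in 1 fit of 18 arrays. Thresholds, p under 0.05 and fold change over 1.5, follow the study's methods. All 10 members are named, as are called genes of the lists. The members and lists were chosen with earlier results of these data known. The fits were tested on simulated data. Promoters came from a RefSeq table. One marker gene is not reported here.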

Additional observations from a re-analysis of the deposited data

How the results depend on the processing

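No paired analysis was possible because the replicate numbers of the labels run through all samples, are not shared by groups and are not carried by the columns. Under adjusted p under 0.05 with the same fold change, the members called were 1 instead of 3 in mesangial cells, 0 instead of 1 in podocytes and 0 instead of 2 in endothelium. As single arrays were left out, the counts of the unadjusted screen ranged from 2 to 4, from 1 to 2 and from 0 to 2, the 0 without endothelial mutant array A. Wild type podocytes against endothelium gave 3 to 5 members, the lowest without endothelial wild type array A or podocyte wild type array C. The average over cell types gave 1 to 2. Interactions past an unadjusted p of 0.05 numbered 0 to 1 for podocytes minus mesangial cells, 0 to 2 for endothelium minus mesangial cells and 0 to 1 for endothelium minus podocytes. With array medians subtracted, the second of these was 1 instead of 2, and *Egr2* there was -0.53 and no longer past it. That scaling also turned the sign of endothelium minus mesangial cells for *Fos* (0.0137), *Fosb* (0.0033) and *Ier3* (0.0093), and of endothelium minus podocytes for *Ier2* (0.0826).

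Single arrays turned the sign of differences that no test had called. In mesangial cells *Atf3* ranged from -0.42 to 0.0573, in podocytes *Jun* from -0.37 to 0.0411, and in endothelium *Junb* from -0.0014 to 0.25 and *Nr4a1* from -0.0390 to 0.12. *Atf3* in wild type podocytes minus mesangial cells ranged from -0.0404 to 0.43. For podocytes minus mesangial cells the ranges were -0.0632 to 0.23 for *Fosb*, -0.47 to 0.0240 for *Atf3*, -0.0653 to 0.29 for *Egr1* and -0.25 to 0.13 for *Nr4a1*. For endothelium minus mesangial cells they were -0.22 to 0.12 for *Fos*, -0.19 to 0.11 for *Fosb*, -0.35 to 0.13 for *Atf3*, -0.33 to 0.21 for *Egr1* and -0.32 to 0.17 for *Ier3*. For endothelium minus podocytes they were -0.31 to 0.0256 for *Fosb*, -0.14 to 0.38 for *Atf3*, -0.48 to 0.0548 for *Egr1* and -0.11 to 0.13 for *Ier2*. *Egr2* in mesangial cells was 0.55, under 1.5-fold, with log2(signal + 16), and *Jun* was called lower there with all 18 arrays in 1 fit and without mutant array A (-1.0003). The cause was not tested. The second deposited form of the values, listed as an alternative, was not run.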

Other observations

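Wild type levels of the wider pathway are given as counts of screen calls, with the share over all transcript clusters tested in brackets. Relative to endothelium, 9 of 26 other rapid response genes were lower in mesangial cells (8.22%) and 4 higher (9.89%), with a median of -0.31 on the log2 scale. In podocytes 11 of the 26 were lower (12.0%) and 4 higher (10.0%), with a median of -0.32. Of 6 upstream factors tested 3 were lower in mesangial cells and 3 in podocytes. None of 9 MAP kinases was called between mesangial cells and endothelium (limma), where 3 had an unadjusted p under 0.05, against 5329 of all 12537 transcript clusters, and 2 of the 9 were lower in podocytes than in endothelium. Relative to endothelium, 3 of 11 feedback inhibitors were higher and 1 lower in mesangial cells, with a median of 0.16, and 2 were higher and 4 lower in podocytes, with a median of -0.54. Between podocytes and mesangial cells 6 of the 11 were lower in podocytes (9.79%) and 1 was higher (6.16%), with a median of -0.67.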
